A study of Mus musculus with 12 samples.

Results

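The effect of losing Plekhg5 in mice that carry the SOD1-G93A transgene was read from 6 of the 12 spinal cord RNA libraries. Of these, 3 came from Plekhg5-/- SOD1-G93A mice and 3 from Plekhg5+/+ SOD1-G93A mice. The libraries were taken by genotype label, and the comparison was chosen with earlier results of these data known. The study crossed Plekhg5-deficient mice with a slowly progressing SOD1-G93A line and sequenced poly-A RNA of spinal cord from 7 months-old animals, asking how the loss of Plekhg5 alters the course of the disease. Both compared groups carried the human SOD1 transgene with the G93A mutation in a line described as low copy. They differed in Plekhg5, which was +/+ in one group and -/- in the other with no restriction to a cell type given, and RNA of the whole tissue was read, so the comparison does not single out a cell type. The background was C57BL/6 in all strains, and males and females were mixed. The remaining 6 libraries came from Plekhg5+/+ and Plekhg5-/- mice of the same age without the transgene, 3 of each, and served as the reference level and in the fit. Each library was treated as 1 mouse.

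Plekhg5 is an exchange factor for the small GTPase Rab26 and takes part in the autophagy of synaptic vesicles and in unconventional secretion in motoneurons. Mutant SOD1 causes motoneuron loss with strong activation of microglia and astrocytes, the resident immune cells and the main support glia of the spinal cord. Blood vessels of the cord are built from endothelial cells that form the barrier between blood and cord, from pericytes and smooth muscle cells, and from a basement membrane shared with perivascular fibroblasts. In bulk RNA a lower level of a marker can come from fewer cells of a type or from less RNA per cell, and these cannot be told apart here.

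Depth was similar in the 6 libraries, with 30415643 to 38743628 counts per library, and human SOD1 had 4421, 4919 and 5638 CPM (counts scaled to library size) in Plekhg5+/+ SOD1-G93A mice and 5002, 4904 and 5098 CPM in Plekhg5-/- SOD1-G93A mice, so the transgene level overlapped between the groups. Markers of the tissue were present in all 6 libraries, with Chat, the acetylcholine-synthesising enzyme of motoneurons, at 19.6 CPM or more. In a principal component analysis of the 12 libraries, the first component held 25.77% of the variance and placed replicate 1 of Plekhg5+/+ SOD1-G93A at 46.99, against 16.97 and 16.02 for the other two mice of that group and 1.604 to 19.71 for the Plekhg5-/- SOD1-G93A mice. Over all genes tested this library was no farther from its group than the others, since the root mean square log2 difference between pairs of the group was 0.4182, 0.4176 and 0.4187. It had the highest CPM of the 3 mice in 36.6% of all genes tested and the lowest in 27.3%. Y-linked transcripts were present in replicates 1 and 3 of Plekhg5+/+ SOD1-G93A and in replicate 1 of Plekhg5-/- SOD1-G93A, and Xist was high in the other 3 libraries, so sex was not balanced between the groups. Values of most genes named below are therefore given for every library, in the order of replicates 1, 2 and 3.

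Of 20155 genes tested with edgeR, 7 (0.0347%) passed an adjusted p of 0.05, 3 of them higher and 4 lower in Plekhg5-/- SOD1-G93A mice. Plekhg5 itself (chr4:152072433-152115404) fell from 21.5, 24.9 and 20.9 CPM to 4.72, 3.92 and 4.14 CPM, a log2 fold change of -2.40 ± 0.14 (SE, edgeR adjusted p = 9.1e-06). The groups lay far apart, and the transcripts that remained in the deleted mice were at 0.19 times the level of the controls. Slc2a5, the fructose transporter that marks microglia in the central nervous system (chr4:150119344-150144168), fell from 3.54, 4.32 and 4.86 CPM to 1.54, 1.43 and 1.66 CPM (log2 fold change -1.46 ± 0.17, edgeR adjusted p = 0.00576). Replicate 1 of Plekhg5+/+ SOD1-G93A was the lowest and not the highest of its group for this gene, unlike the microglial genes described below. Faap20, a subunit of the Fanconi anaemia core complex, fell from 22.3, 23.1 and 22.6 CPM to 15.7, 15.3 and 14.7 CPM (log2 fold change -0.58 ± 0.08, edgeR adjusted p = 0.018). The levels of Faap20 were tight within each group, and no mouse crossed between them. Eno1, the glycolytic enzyme enolase 1, fell from 367, 353 and 392 CPM to 253, 262 and 243 CPM (log2 fold change -0.55 ± 0.08, edgeR adjusted p = 0.0326). Eno1b, a retrogene copy of Eno1 on chromosome 18 that shares reads with it, had 134, 127 and 141 CPM and 176, 180.2 and 168 CPM in the opposite direction (log2 fold change 0.38 ± 0.08, edgeR adjusted p = 0.262). The sum of both enolase rows was 505 ± 26.8 CPM and 428 ± 15.5 CPM (SD, n = 3), so the summed level was lower in the deleted mice as well. The genes that rose were the predicted genes Gm30120, Gm8483 and LOC115489042, with log2 fold changes of 2.84 ± 0.20, 1.62 ± 0.14 and 4.38 ± 0.37. Gm30120 had 0.528, 0.330 and 0.390 CPM and 3.16, 3.15 and 2.73 CPM, and Gm8483 and LOC115489042 lay on chromosomes 14 and 19. Plekhg5 and the 3 predicted genes passed under all 20 alternatives chosen at the outset. In a further fit, DESeq2 with its prior on the 6 libraries without replicate 1 of Plekhg5+/+ SOD1-G93A, Plekhg5, Eno1 and Faap20 passed, and DESeq2 gave no adjusted p for the other 4 genes. Leaving out 1 of the 6 libraries ended the call of Faap20 and Eno1 whichever library it was, with adjusted p from 0.0746 to 0.146 for Faap20 and from 0.0838 to 0.209 for Eno1, and that of Slc2a5 without replicate 2 of Plekhg5+/+ SOD1-G93A (0.0627), replicate 1 (0.0627) or replicate 2 (0.0789) of Plekhg5-/- SOD1-G93A.

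Plekhg5, Slc2a5, Eno1, Gm30120 and Faap20 all lie on chromosome 4. Slc2a5, Eno1 and Gm30120 lie 1.93, 1.82 and 1.09 Mb from Plekhg5 and Faap20 lies 3.13 Mb from it. Among 223 tested genes with any part within 10 Mb of Plekhg5, 33 (14.8%) had an unadjusted p under 0.05, against 1607 of 18890 (8.51%) on other chromosomes. All 7 genes had the same sign in the comparison of Plekhg5-/- with Plekhg5+/+ mice without the transgene, which shares no library with this one. There Slc2a5 had a log2 fold change of -1.44 ± 0.17 and Eno1 of -0.49 ± 0.08, close to their values with the transgene, whereas Faap20 had -0.24 ± 0.08. The test of the difference between both settings did not pass for any of the 7 genes, with adjusted p of 0.412 for Faap20 and higher values for the others. Ttc34, also on chromosome 4 at 2.72 Mb, had 1.55, 1.72 and 1.44 CPM and 3.36, 2.67 and 3.83 CPM (log2 fold change 1.07 ± 0.18, edgeR adjusted p = 0.134). Whether the sequence around Plekhg5 differs between the genotypes was not tested.

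**Figure D1:**
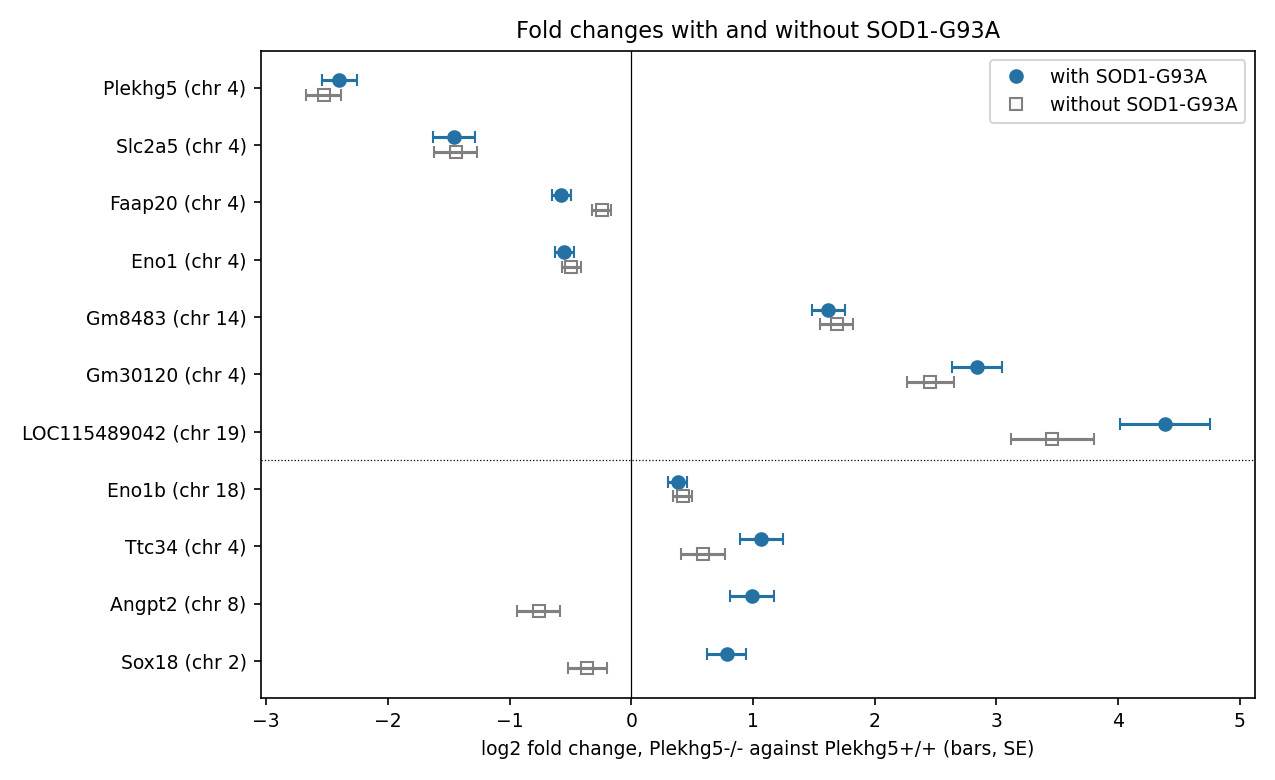
Log2 fold changes of Plekhg5-/- against Plekhg5+/+ mice with SOD1-G93A (filled circles) and without it (open squares), with SE bars from the edgeR fit, for the 7 genes with adjusted p under 0.05 (above the dotted line) and 4 further genes. The 7 genes had the same sign in both settings, while Angpt2 and Sox18 had opposite signs (0.99 and -0.76 for Angpt2).

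With these 7 included, 723 genes (3.59%) were higher and 1018 (5.05%) lower at an unadjusted p under 0.05, and the groups did not overlap for 1909 genes (9.47%) in the higher and 2018 genes (10.0%) in the lower direction. With replicate 1, 2 or 3 of Plekhg5+/+ SOD1-G93A left out, 2.51, 6.60 and 2.18% of all genes were higher and 2.85, 6.26 and 5.26% lower at that p. Leaving out replicate 1, 2 or 3 of Plekhg5-/- SOD1-G93A gave 2.81, 2.11 and 2.77% higher and 4.17, 3.24 and 3.92% lower. The median log2 fold change of all genes was -0.01. None of the tested genes in the 33 lists described below (441 genes in all) passed the edgeR threshold, so each list is described by its counts beside these shares and no member is called changed by that test. DESeq2 with its prior on fold changes, an alternative that follows the method of the study, called 34 genes (0.173%) higher and 81 genes (0.413%) lower, and its calls are named as such. Several list members, among them the vascular genes Sox18, Esam, Kank3 and Angpt2 and the microglial genes Trem2, Cd68, Olfml3, Ccl3, Ccl4 and Ccl6, were picked by the study from these libraries, so their direction is not independent evidence.

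**Figure D2:**
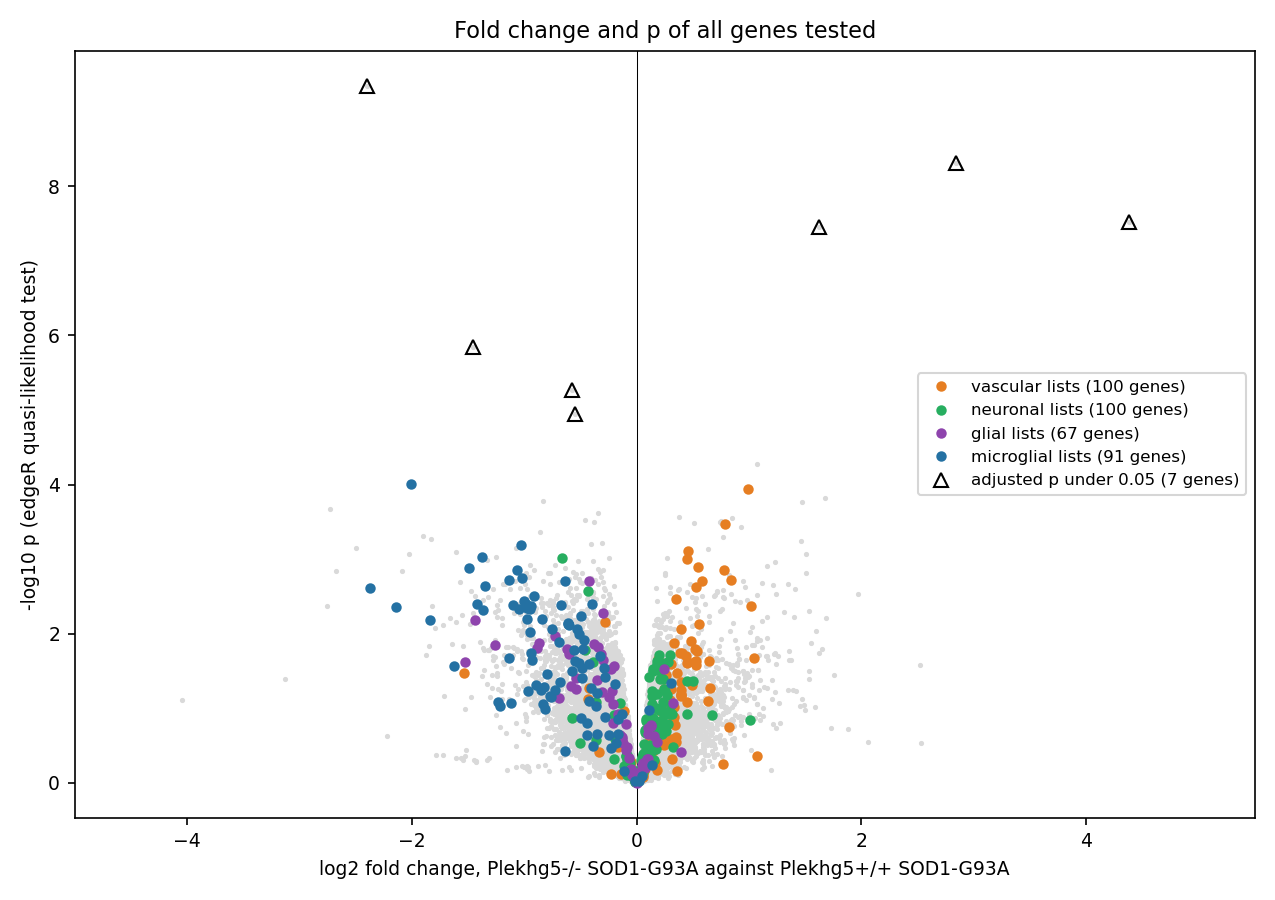
Log2 fold change (x axis) and -log10 of the unadjusted edgeR p (y axis) of all 20155 genes tested, with genes of the vascular, neuronal, glial and microglial lists coloured and the 7 genes past the adjusted threshold as triangles. Vascular genes (orange) lie mostly to the right of 0 and microglial genes (blue) to the left, below the 7 triangles.

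Endothelial genes were higher in Plekhg5-/- SOD1-G93A mice. Of 20 endothelial identity genes, 19 had a positive log2 fold change, 12 had an unadjusted p under 0.05 in the higher direction and 0 in the lower, and for 12 the groups did not overlap, all higher, with a list median of 0.40. Relative to the mean of Plekhg5+/+ mice without the transgene, the mean log2 level of the list was -0.06, -0.02 and -0.17 in Plekhg5+/+ SOD1-G93A mice and 0.50, 0.25 and 0.13 in Plekhg5-/- SOD1-G93A mice. The controls thus lay at or just below the level without the transgene and the deleted mice above it, with replicate 1 of Plekhg5-/- SOD1-G93A highest. Cdh5, the cadherin of endothelial junctions (chr8:104101613-104144504), had 13.2, 14.2 and 14.4 CPM in Plekhg5+/+ SOD1-G93A and 21.1, 21.6 and 19.9 CPM in Plekhg5-/- SOD1-G93A mice (log2 fold change 0.58 ± 0.15, edgeR adjusted p = 0.402). All 3 deleted mice lay above all 3 controls by more than the spread within either group. Sox18, a transcription factor of endothelial differentiation (chr2:181669837-181671640), had 3.88, 4.52 and 4.05 CPM and 9.07, 6.53 and 5.88 CPM (log2 fold change 0.78 ± 0.16, edgeR adjusted p = 0.262). Esam, an adhesion molecule of endothelial junctions, had 9.44, 10.7 and 9.24 CPM and 16.4, 14.1 and 12.4 CPM, again without overlap. Eng, a co-receptor for signals of the TGF-beta family, had 21.6, 20.6 and 21.3 CPM and 34.9, 25.7 and 22.9 CPM, with replicate 1 of the deleted mice well above the rest. Sox18, Esam, Kank3 and Cdh5 were the 4 genes of this list called higher by DESeq2 with its prior. Cd34, which is also carried by cells other than endothelium, was the only member with a negative value (-0.44), and its level in replicate 1 of Plekhg5+/+ SOD1-G93A stood out, at 79.8, 42.5 and 38.5 CPM against 41.4, 41.8 and 35.7 CPM. Without replicate 1 of Plekhg5+/+ SOD1-G93A the list median was 0.40, with 8 members higher and 0 lower at an unadjusted p under 0.05 against 2.51% and 2.85% of all genes. Leaving out the highest mouse, replicate 1 of Plekhg5-/- SOD1-G93A, gave a median of 0.30, with 5 members higher against 2.81% of all genes.

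Genes of the barrier had smaller values than those of endothelial identity, a difference that was not tested. Among 18 genes for junctions and transporters of the blood-brain barrier the median was 0.18, with 2 higher and 1 lower at an unadjusted p under 0.05. Cldn5, the main claudin of the barrier, had 19.9, 21.98 and 17.8 CPM and 35.6, 25.1 and 23.3 CPM (log2 fold change 0.49 ± 0.22). The efflux pump gene Abcb1a had 38.3, 43.1 and 40.8 CPM and 54.4, 55.8 and 50.6 CPM (log2 fold change 0.40 ± 0.13), and for both genes the deleted mice lay above the controls. Slc16a1, a lactate transporter also found in glia, went the other way with 118, 105 and 89.6 CPM and 86.5, 83.97 and 87.3 CPM. The glucose transporter gene Slc2a1, at 138 CPM or more in each of the 6 libraries, had a log2 fold change of 0.21 ± 0.12.

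Among angiogenic signals, Angpt2 had the smallest p. Angpt2, a ligand that endothelium releases and that can block the Tie2 receptor (chr8:18690263-18741562), had 1.09, 1.35 and 0.930 CPM in Plekhg5+/+ SOD1-G93A and 2.41, 2.19 and 2.098 CPM in Plekhg5-/- SOD1-G93A mice, with no overlap (log2 fold change 0.99 ± 0.18, edgeR adjusted p = 0.23). It was the only one of 21 angiogenic ligands and receptors called by DESeq2 with its prior. The receptors of Vegfa also lay higher, with 11.6, 11.7 and 9.24 CPM and 20.9, 16.3 and 13.8 CPM for Kdr and 69.7, 63.5 and 51.5 CPM and 89.2, 88.98 and 73.7 CPM for Flt1. Dll4, the Notch ligand of sprouting endothelium, had 2.58, 2.18 and 1.83 CPM and 3.11, 3.19 and 3.13 CPM. Vegfa itself had 66.5, 66.99 and 62.5 CPM and 82.2, 83.6 and 66.1 CPM, and its groups overlapped. Over the list the median was 0.19, with 4 members higher and 0 lower at an unadjusted p under 0.05 and 5 higher and 0 lower without replicate 1 of Plekhg5+/+ SOD1-G93A. Without replicate 3 of Plekhg5+/+ SOD1-G93A 1 member was higher, and 2 were without replicate 1 of Plekhg5-/- SOD1-G93A.

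Genes of activated endothelium were mixed. Vwf, the clotting factor stored in endothelial granules, had 18.4, 11.98 and 27.7 CPM and 50.6, 36.8 and 30.2 CPM, so that the highest control lay just below the lowest deleted mouse (log2 fold change 1.01 ± 0.28, edgeR adjusted p = 0.414). Ackr1, a chemokine-binding receptor of venules, had 15.3, 16.8 and 14.5 CPM and 22.3, 17.9 and 17.5 CPM. Ch25h, which makes 25-hydroxycholesterol, was highest in replicate 1 of Plekhg5+/+ SOD1-G93A, with 7.89, 1.49 and 2.85 CPM and 1.82, 1.49 and 0.932 CPM. Of 11 genes, 2 were higher and 1 lower at an unadjusted p under 0.05, with a median of 0.36. The sign of that median rested on replicate 1 of Plekhg5-/- SOD1-G93A, since without it 4 genes were positive, 7 were negative and the median was -0.05. It was also small with limma voom (0.05) and with the DESeq2 prior (0.02). Among 15 genes of pericytes and smooth muscle the median was 0.20 with all libraries and 0.13 without replicate 1 of Plekhg5+/+ SOD1-G93A. Rgs5, a regulator of G-protein signalling in pericytes, had 98.1, 110.4 and 76.5 CPM and 131, 123 and 112 CPM, and Myh11, the myosin of smooth muscle, had 3.99, 4.98 and 5.85 CPM and 6.63, 7.29 and 6.19 CPM. Tagln, an actin-binding protein of smooth muscle, was lower in all 3 deleted mice (13.9, 10.8 and 13.02 CPM and 8.54, 9.81 and 9.802 CPM).

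Matrix genes of vessels and fibroblasts were higher as well. Of 15 genes for the basement membrane and fibroblasts, all had a positive log2 fold change, 10 were higher and 0 lower at an unadjusted p under 0.05, and 8 did not overlap, with a median of 0.46. Hspg2, the basement membrane proteoglycan perlecan, had 19.4, 22.9 and 23.4 CPM in Plekhg5+/+ SOD1-G93A and 35, 40.95 and 41.4 CPM in Plekhg5-/- SOD1-G93A mice (log2 fold change 0.84 ± 0.21, edgeR adjusted p = 0.402). Col1a1, a chain of fibrillar collagen made by fibroblasts, had 19.4, 16.6 and 23.7 CPM and 33.4, 37.1 and 32.2 CPM (log2 fold change 0.78 ± 0.19). Col1a2, the partner chain of Col1a1, had 50.3, 42.3 and 63.7 CPM and 72.1, 82.3 and 75.3 CPM, so that all 3 deleted mice again exceeded the controls. Col4a1, a chain of basement membrane collagen, had 29.8, 33.6 and 26.8 CPM and 42.96, 47.3 and 39.9 CPM (log2 fold change 0.53 ± 0.14). For each of these genes all deleted mice lay above all controls. The laminin chain genes Lama2 and Lamb1 were among the 12 higher genes named for the smallest p, with log2 fold changes of 0.46 ± 0.10 and 0.85 ± 0.17. DESeq2 with its prior called Col1a1, Hspg2 and Lama2 higher. Without replicate 1 of Plekhg5+/+ SOD1-G93A the median was 0.47, with 8 genes higher and 0 lower at an unadjusted p under 0.05.

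Markers of Schwann cells, the myelinating glia of peripheral nerves and spinal roots, were also higher in the deleted mice. The order of these mice differed from that of the vascular and matrix lists. The highest mean log2 level was in replicate 3 for Schwann cells (1.05), replicate 1 for endothelial identity (0.50) and replicate 2 for basement membrane and fibroblasts (0.67). In Plekhg5+/+ mice without the transgene, Schwann cells (0.31, 0.51 and -0.81) and basement membrane (-0.01, 0.23 and -0.22) had the same order. Replicate 1 was lowest in both lists in Plekhg5-/- mice without the transgene (-0.75 and -0.45). It was also lowest in both in Plekhg5+/+ SOD1-G93A mice (-0.72 and -0.05). In these groups the order of the remaining replicates differed between the lists. Of 8 Schwann cell markers all had a positive log2 fold change, 6 were higher at an unadjusted p under 0.05 and 6 did not overlap, with a median of 1.14 (0.81 without replicate 1 of Plekhg5+/+ SOD1-G93A). The number of genes at that p fell to 2 without this library and to 3 without replicate 3 of Plekhg5-/- SOD1-G93A. The summed level of the list was 286, 421 and 378 CPM in Plekhg5+/+ SOD1-G93A and 608, 555 and 759 CPM in Plekhg5-/- SOD1-G93A mice. It was 520.2, 568 and 266 CPM in Plekhg5+/+ and 293, 278 and 330.4 CPM in Plekhg5-/- mice without the transgene, so mice of 1 genotype could differ by more than the lowest deleted mouse differed from the highest control. No marker of the list was at 0. Dhh, the hedgehog ligand of Schwann cells, had 1.34, 2.08 and 1.92 CPM and 5.33, 4.43 and 5.41 CPM (log2 fold change 1.51 ± 0.37, edgeR adjusted p = 0.402), and Ncmap, a protein of non-compact myelin, had 3.73, 5.81 and 5.68 CPM and 8.87, 9.17 and 10.9 CPM. Pmp22, a protein of peripheral myelin that is also made elsewhere, had 149, 194 and 183 CPM and 234, 212 and 276 CPM. Dhh and Ncmap were called higher by DESeq2 with its prior. Hspg2 and Ncmap lie on chromosome 4 as well, 14.5 and 16.7 Mb from Plekhg5. The part of root or nerve tissue in the vascular and matrix values was not tested. Globin genes went the other way, with a summed level of 1223, 955 and 2071 CPM and 977, 686 and 574 CPM over 5 genes (median -0.91), all lower at an unadjusted p under 0.05. Without replicate 3 of Plekhg5+/+ SOD1-G93A, the highest mouse, the globin median was -0.51 with 2 genes lower, and without replicate 3 of Plekhg5-/- SOD1-G93A it was -0.74, also with 2. Their part in the endothelial values was not tested either.

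**Figure D3:**
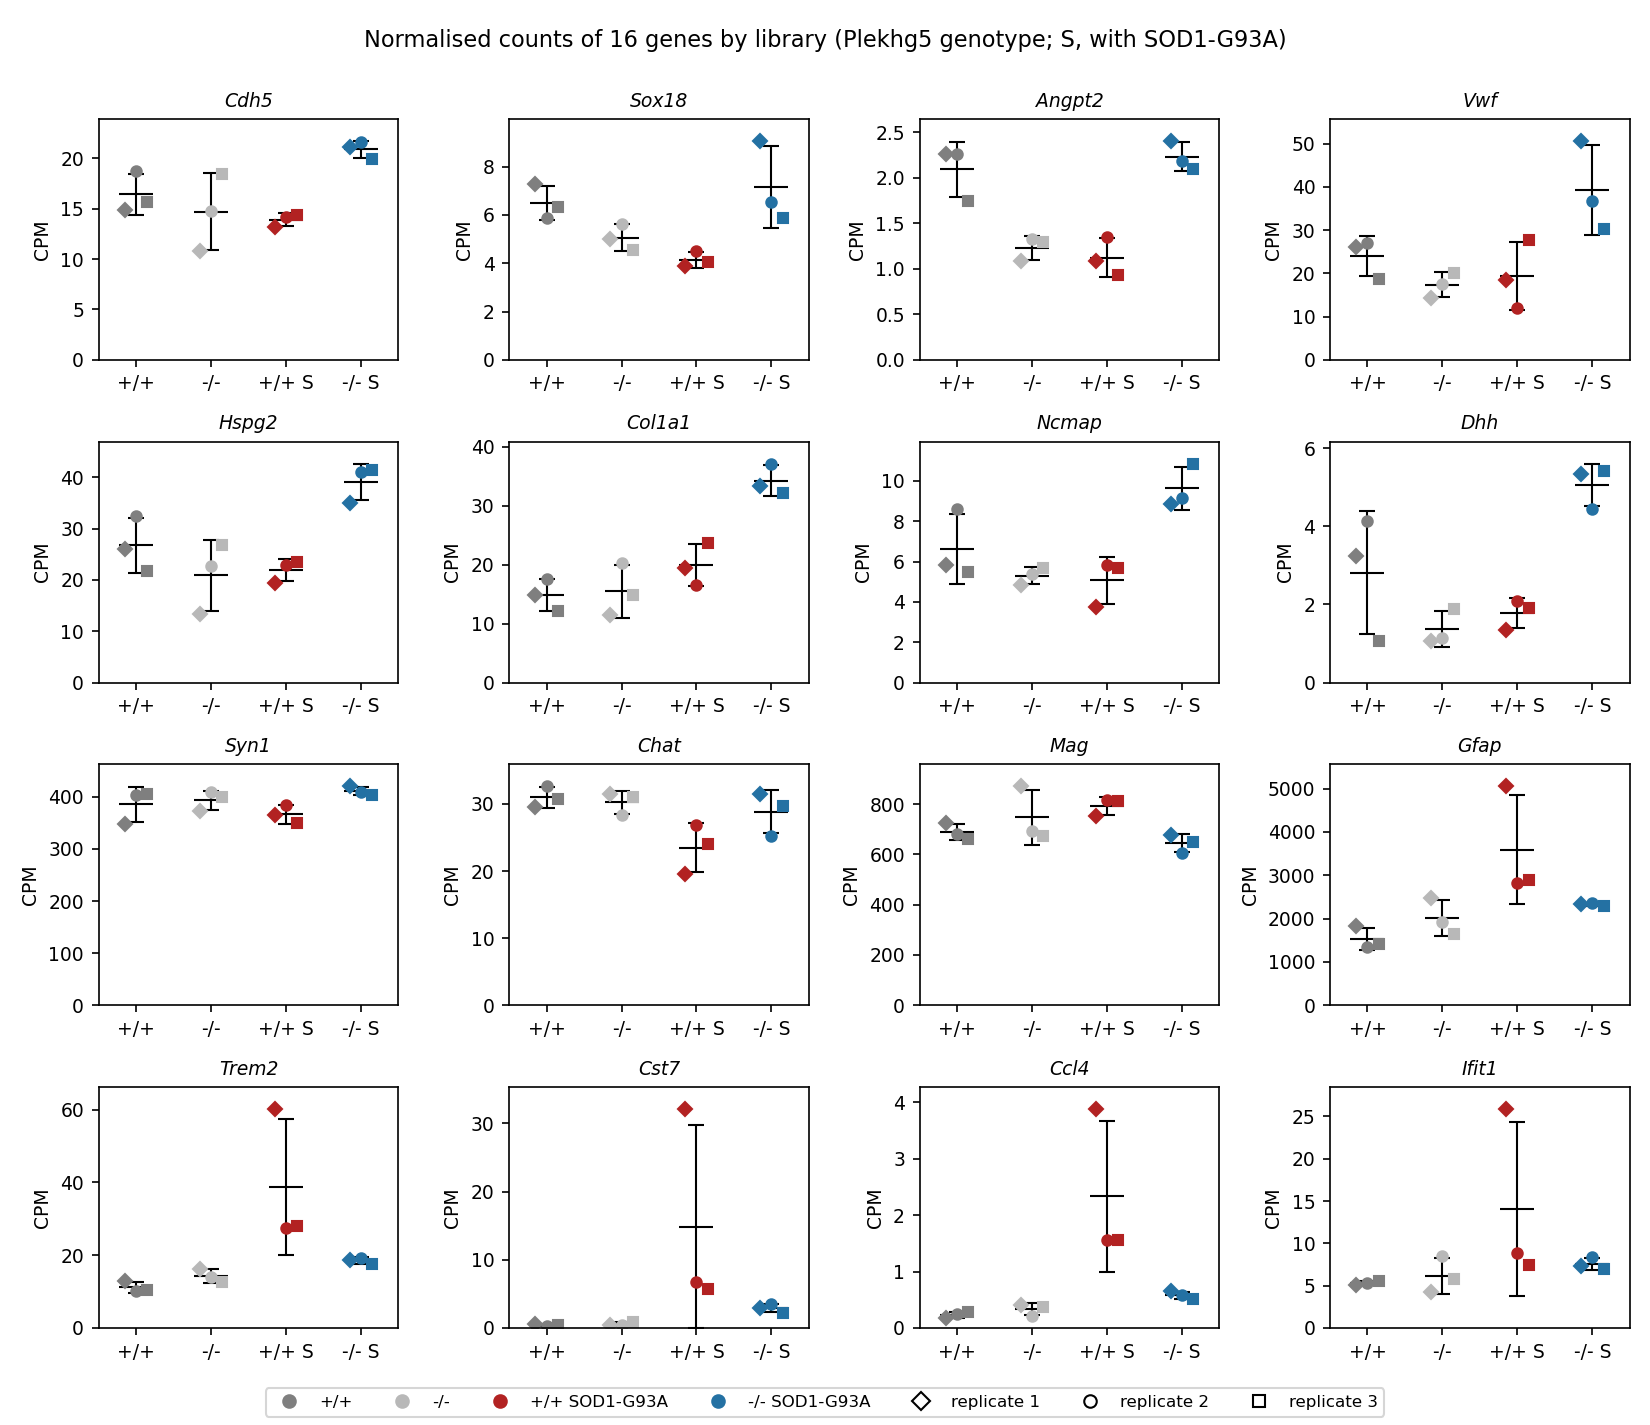
Normalised counts (CPM, y axes from 0) of 16 genes in the 4 genotypes, with 1 symbol per mouse (diamond, circle and square for replicates 1, 2 and 3), the mean and the SD (n = 3). Cdh5, Hspg2, Col1a1 and Dhh show 3 Plekhg5-/- SOD1-G93A mice above 3 Plekhg5+/+ SOD1-G93A mice, while Trem2, Cst7, Ccl4 and Ifit1 show replicate 1 of Plekhg5+/+ SOD1-G93A far above the other mice.

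Neuronal genes were slightly higher in Plekhg5-/- SOD1-G93A mice, and few passed even the unadjusted threshold. All 14 genes of cholinergic motoneurons had a positive log2 fold change, with a median of 0.22. At an unadjusted p under 0.05, 4 were higher and 0 lower. Only 1 was without overlap, where 9.47% of all genes were in the higher direction. The mean log2 level of the list overlapped, at -0.43, -0.18 and -0.30 in Plekhg5+/+ SOD1-G93A and 0.12, -0.30 and -0.06 in Plekhg5-/- SOD1-G93A mice. Chat had 19.6, 26.9 and 24.04 CPM in Plekhg5+/+ SOD1-G93A and 31.5, 25.3 and 29.7 CPM in Plekhg5-/- SOD1-G93A mice (log2 fold change 0.30 ± 0.11, edgeR adjusted p = 0.517), and the groups overlapped. Prph, the intermediate filament peripherin, had 53.1, 68.2 and 59.4 CPM and 78.6, 62.6 and 71.4 CPM. Mnx1, a motoneuron transcription factor, was the member without overlap, at 0.994, 0.990 and 1.08 CPM and 1.76, 1.15 and 1.42 CPM, or 0.99 to 1.76 CPM in all. Ret, the receptor kinase for neurotrophic factors of the GDNF family, had 127, 159.6 and 114 CPM and 169, 138 and 158 CPM and overlapped as well. Replicate 1 of Plekhg5+/+ SOD1-G93A was the lowest of its group in 9 of the 14 genes, and without it the median was 0.17 with 0 genes past an unadjusted p of 0.05. That count was 1 without replicate 1 or 3 of Plekhg5-/- SOD1-G93A, 2 without replicate 3 of the controls and 7 without replicate 2 of either genotype.

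Of 19 genes of synaptic vesicle release, 17 had a positive log2 fold change, 6 were higher and 0 lower at an unadjusted p under 0.05 and 10 did not overlap, with a median of 0.14. Sv2b, a vesicle glycoprotein, had 134, 165 and 137 CPM and 180.1, 165 and 173 CPM, and Syt1, the calcium sensor of release, had 240.5, 225 and 239 CPM and 255, 296 and 252 CPM. Syn1, the vesicle-tethering phosphoprotein synapsin 1, had 365, 384 and 349 CPM and 420.2, 409 and 404 CPM (log2 fold change 0.17 ± 0.07). In these 3 genes the deleted mice lay above the controls by a narrow margin. Without replicate 1 of Plekhg5+/+ SOD1-G93A the median was 0.10 and 1 gene was higher at an unadjusted p under 0.05. Replicate 2 of the same group had the opposite influence, with 10 genes higher and a median of 0.22 without it, and leaving out any of the other 4 libraries gave 1 to 3 genes. The neuronal cytoskeleton (median 0.15), ion channels (median 0.19) and transmitter identity of interneurons (median 0.05) had small positive medians. Those of ion channels and interneurons depended on the controls, at 0.31 and 0.08 without replicate 2 and 0.11 and 0.12 without replicate 3. Nefm, the medium neurofilament chain, had 1410.3, 1846 and 1347 CPM and 2050.4, 1528 and 1893 CPM with overlap. The mean log2 level of the cytoskeleton list overlapped too, at -0.29, -0.09 and -0.26 in the controls and -0.01, -0.16 and -0.07 in the deleted mice. Slc17a6, the glutamate transporter of excitatory neurons, had 246, 261 and 242 CPM and 269.6, 282 and 275 CPM (log2 fold change 0.14 ± 0.06). Gad2, an enzyme that makes GABA, had 139, 140.3 and 126 CPM and 150.1, 165 and 151 CPM (log2 fold change 0.20 ± 0.08). Both genes lay above the controls in every deleted mouse.

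Single genes of axon injury and neuronal activity lay lower, and the axon injury list as a whole did not keep its direction gene by gene. Csf1, the ligand of the microglial receptor Csf1r that injured motoneurons produce, had 102, 73.7 and 70.03 CPM and 62.3, 56.1 and 63.8 CPM, without overlap (log2 fold change -0.43 ± 0.12, edgeR adjusted p = 0.402). Gadd45a, a stress response gene, had 19.2, 13.1 and 12.1 CPM and 10.7, 11.4 and 10.2 CPM, and Atf3, the injury-induced transcription factor, had 14.3, 6.402 and 4.77 CPM and 6.91, 5.22 and 5.02 CPM with overlap. The remaining genes of the axon injury list differed little, so its median was -0.06 over 13 genes, 2 positive and 11 negative. With replicate 1 of the controls left out 6 were positive and 7 negative, with a median of -0.0068, and the same numbers were found with the Y-linked covariate (median -0.0099) and without replicate 3 of the controls (median -0.08). The median was -0.10 without replicate 2 of the controls and -0.13 without replicate 1 of Plekhg5-/- SOD1-G93A. Among 12 immediate early genes, Junb had 24.5, 15.9 and 17.7 CPM and 12.5, 11.8 and 12.4 CPM (log2 fold change -0.67 ± 0.16, edgeR adjusted p = 0.402) and was called lower by DESeq2 with its prior. Ier2 also lay lower in all deleted mice, and the list median was -0.16 (-0.26 without replicate 3 of Plekhg5-/- SOD1-G93A).

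**Figure D4:**
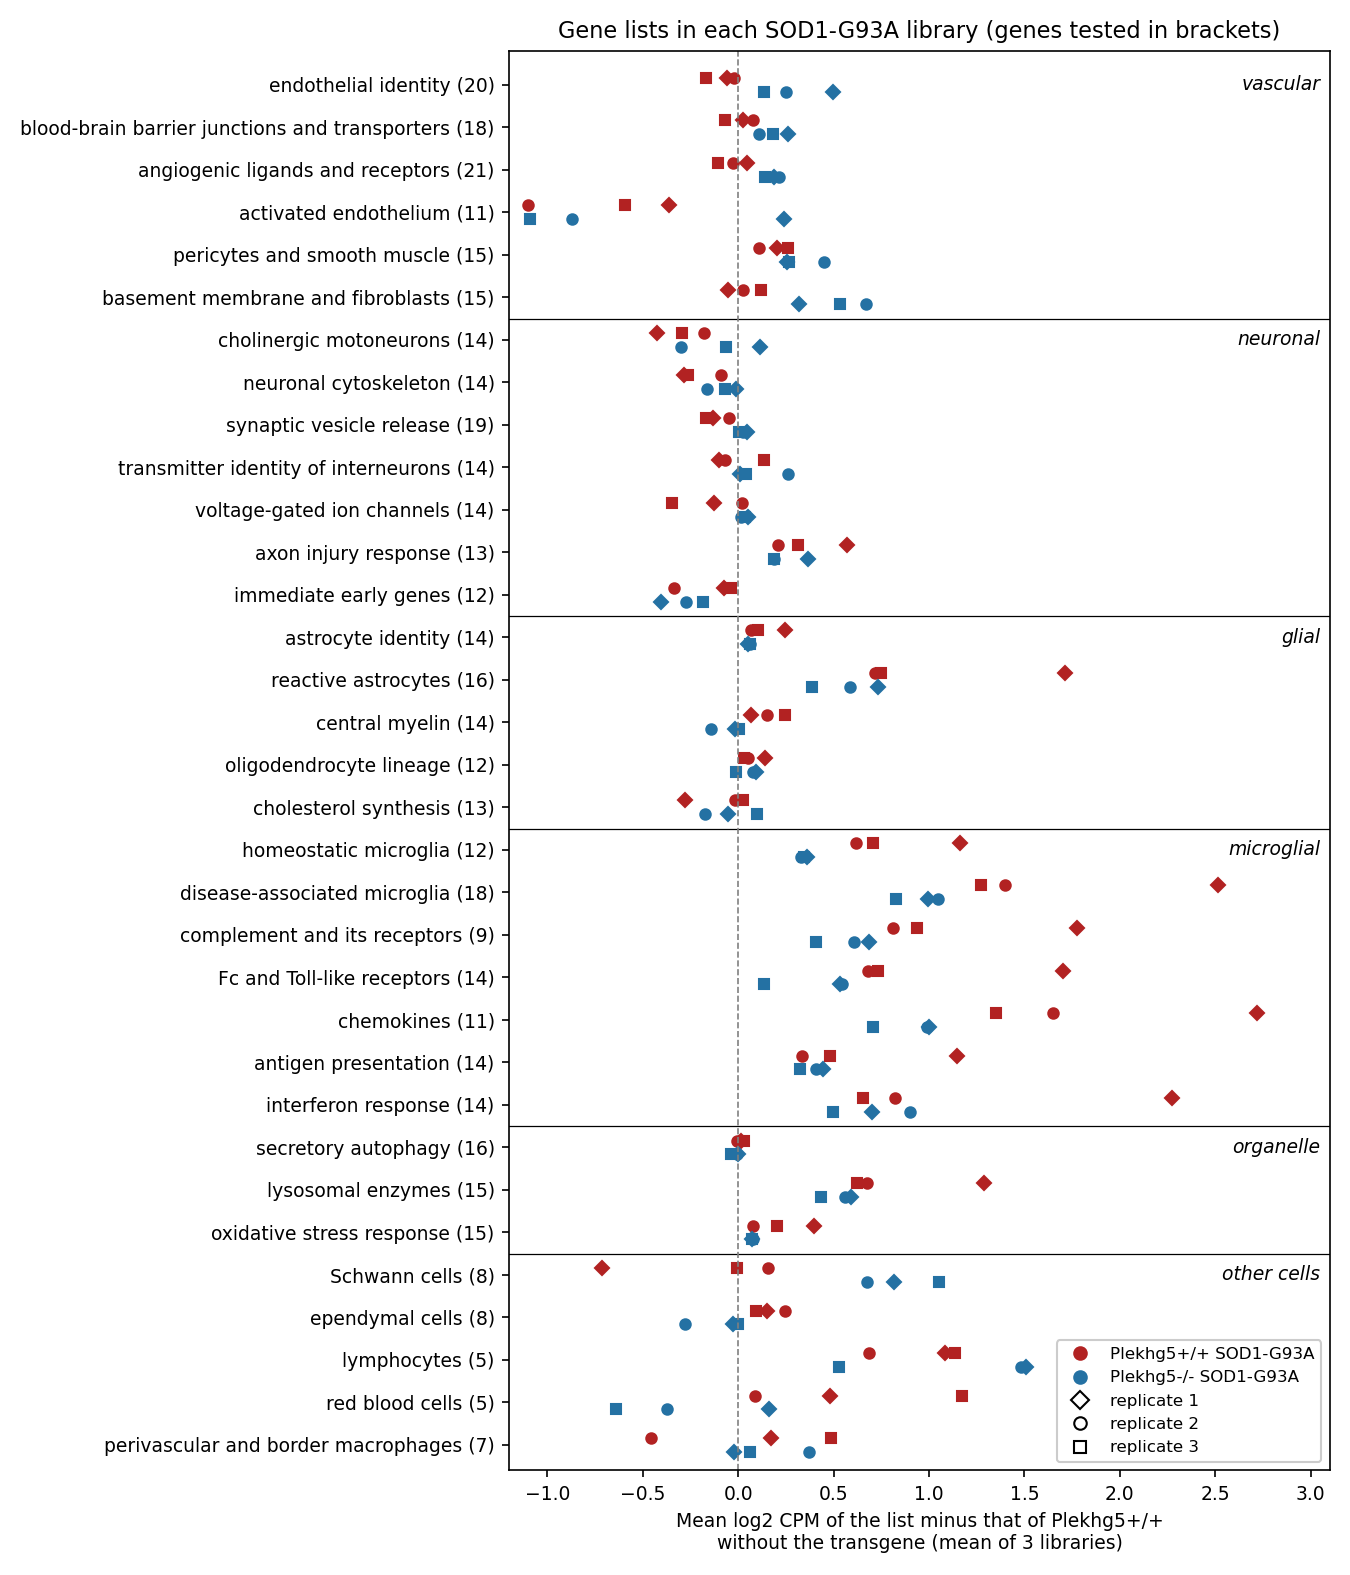
Mean log2 CPM of each gene list in the 6 SOD1-G93A libraries (x axis, relative to the mean of Plekhg5+/+ mice without the transgene, dashed line), with 1 symbol per mouse and the number of genes tested in brackets. Replicate 1 of Plekhg5+/+ SOD1-G93A (red diamonds) stands apart in the microglial, interferon and reactive astrocyte lists, at 2.52 for disease-associated microglia against 1.40 and 1.27, and lies between the other two mice of its group for endothelial identity.

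Astrocyte identity genes had a median of -0.04 over 14 genes, with 2 lower at an unadjusted p under 0.05 (-0.0045 and 0 lower without replicate 1 of Plekhg5+/+ SOD1-G93A), whereas reactive astrocyte genes were lower (median -0.61 over 16 genes, with 0 higher and 9 lower at an unadjusted p under 0.05 and 7 lower without overlap). Gfap, the intermediate filament of astrocytes (chr11:102887336-102897200), had 5054, 2825 and 2897 CPM in Plekhg5+/+ SOD1-G93A and 2336, 2363 and 2300.0 CPM in Plekhg5-/- SOD1-G93A mice (log2 fold change -0.62 ± 0.22, edgeR adjusted p = 0.517). The groups did not overlap, and the gap rested largely on replicate 1 of the controls. Serpina3n, a secreted protease inhibitor of reactive astrocytes, had 499.8, 156 and 141 CPM and 117, 119.8 and 94.9 CPM. C4b, a complement component made by glia, had 464, 253 and 225 CPM and 193, 212 and 166 CPM. Timp1, an inhibitor of metalloproteinases, had 12.7, 3.56 and 3.66 CPM and 2.04, 3.19 and 2.15 CPM and was the one gene of the list called lower by DESeq2 with its prior. Without replicate 1 of Plekhg5+/+ SOD1-G93A the list median was -0.20, with 3 genes lower at an unadjusted p under 0.05. Of the astrocyte identity genes, Aldh1l1, a folate enzyme used as a pan-astrocyte marker, had 106, 79.5 and 86.7 CPM and 76.9, 72.1 and 69.2 CPM.

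Central myelin genes were lower, in contrast to the Schwann cell markers. Of 14 genes, 13 had a negative log2 fold change, 0 were higher and 5 lower at an unadjusted p under 0.05 and 7 did not overlap, with a median of -0.21. Trf, the iron carrier transferrin made by oligodendrocytes, had 2234, 2061 and 1975 CPM and 1599, 1507 and 1566 CPM (log2 fold change -0.42 ± 0.11, edgeR adjusted p = 0.402) and was called lower by DESeq2 with its prior. Mag, an adhesion molecule of the inner myelin membrane, had 751, 814 and 811 CPM and 676, 605 and 649.6 CPM (log2 fold change -0.30 ± 0.09). Opalin, a protein of mature oligodendrocytes, had 49.4, 48.8 and 45.8 CPM and 39.5, 31.5 and 39.5 CPM. All deleted mice lay below all controls in these 3 genes, and replicate 1 of Plekhg5+/+ SOD1-G93A was the lowest of its group in 11 of the 14 genes of the list. Without it the median was -0.27, with 7 genes lower at an unadjusted p under 0.05, so this difference did not rest on that library. Without replicate 3 of Plekhg5+/+ SOD1-G93A it was -0.13 and without replicate 2 of Plekhg5-/- SOD1-G93A -0.16, each with 3 genes lower. The 12 genes of the oligodendrocyte lineage and 13 genes of cholesterol synthesis had medians of -0.03 and 0.02, which turned to 0.06 and -0.07 without that library and to 0.01 and -0.07 without replicate 3 of Plekhg5-/- SOD1-G93A. All 13 cholesterol genes were lowest in it among the 3 controls.

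Microglial genes held some of the most negative medians of the 33 lists, and their size depended on replicate 1 of Plekhg5+/+ SOD1-G93A. The promoter windows of Trem2 and Cd68, a lipid-sensing receptor of microglia and a protein of phagocyte lysosomes, are shown because both genes moved with the disease-associated list and hold the purine-rich box GAGGAA read by the microglial factor PU.1. That of Ifit1, an antiviral protein induced by interferon, is shown for the interferon list, with the core of its response element, GAAA and GAAA spaced by 2 bases. The windows run from 250 bases before to 50 bases after the annotated start (RefSeq, GRCm38.p6, 5′ to 3′ on the strand of the gene), with matches on either strand in capitals.
Trem2, chr17:48346151-48346450, plus strand: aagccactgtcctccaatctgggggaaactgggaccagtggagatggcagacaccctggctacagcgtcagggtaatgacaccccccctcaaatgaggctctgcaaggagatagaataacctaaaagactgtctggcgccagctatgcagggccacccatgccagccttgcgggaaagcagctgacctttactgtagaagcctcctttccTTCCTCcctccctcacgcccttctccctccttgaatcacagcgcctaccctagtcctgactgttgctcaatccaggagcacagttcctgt
Cd68, chr11:69666121-69666420, minus strand: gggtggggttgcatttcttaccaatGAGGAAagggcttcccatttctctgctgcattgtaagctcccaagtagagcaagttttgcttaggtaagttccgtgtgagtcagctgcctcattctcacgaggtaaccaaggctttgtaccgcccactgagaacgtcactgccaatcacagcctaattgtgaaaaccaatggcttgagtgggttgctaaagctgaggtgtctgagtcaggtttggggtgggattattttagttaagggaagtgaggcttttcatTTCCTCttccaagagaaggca
Ifit1, chr19:34640639-34640938, plus strand: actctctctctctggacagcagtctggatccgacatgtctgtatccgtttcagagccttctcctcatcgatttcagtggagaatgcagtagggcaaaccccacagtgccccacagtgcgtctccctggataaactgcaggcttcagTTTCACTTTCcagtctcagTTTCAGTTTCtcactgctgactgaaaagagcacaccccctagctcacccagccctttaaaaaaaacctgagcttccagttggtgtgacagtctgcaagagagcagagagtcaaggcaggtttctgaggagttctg
A GAGGAA match was found in 8 of 14 disease-associated genes with a window and in 31% of 13924 tested genes with one, and that core in 5 of 8 interferon genes and 3.81% of all. Among the other microglial lists GAGGAA was in 7 of 11 windows of Fc and Toll-like receptors. It was in 3 of 7 homeostatic, 3 of 7 chemokine, 3 of 6 complement, 2 of 8 interferon and 0 of 9 antigen presentation windows. The match was not particular to microglial lists. Endothelial identity held it in 6 of 10 windows, ependymal cells in 4 of 6 and reactive astrocytes in 7 of 15, against 2 of 12 for axon injury and 1 of 8 for ion channels. In all, 13 motifs were searched on both strands. The others were TGACTCA of AP-1 factors, AACAAT as well as ACAAAG of SOX factors, AGGAAGT as well as CCGGAAG of ETS factors, the run TTCCGG, the E-box CACGTGA, parts of the REST site (CAGCACC as well as GGACAGC), the cAMP response element and the EGR site, and 1 motif can share letters with another, as AGGAAGT does with GAGGAA. They were held by 3.12 to 25.9% of all windows. Some of these were also frequent in small lists. AGGAAGT was in 3 of 6 complement, 3 of 7 homeostatic, 4 of 11 Fc and Toll-like receptor and 2 of 7 chemokine windows, against 10.3% of all. It was in 2 of 14 disease-associated, 0 of 8 interferon and 0 of 9 antigen presentation windows. GGACAGC was in 3 of 5 Schwann cell windows, against 9.17% of all. A match is a run of letters and not a measured binding site.

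Of 18 genes of disease-associated microglia, all had a negative log2 fold change, 0 were higher and 14 lower at an unadjusted p under 0.05 and 15 did not overlap, with a median of -0.80. Trem2 (chr17:48346401-48352276) had 60.2, 27.6 and 28.1 CPM in Plekhg5+/+ SOD1-G93A and 18.7, 19.3 and 17.5 CPM in Plekhg5-/- SOD1-G93A mice (log2 fold change -1.06 ± 0.25, edgeR adjusted p = 0.402). Cst7, a cathepsin inhibitor induced in these cells, had 32.1, 6.798 and 5.698 CPM and 2.96, 3.46 and 2.23 CPM (log2 fold change -2.37 ± 0.60, edgeR adjusted p = 0.402). Cd68 had 54.9, 25.4 and 23.1 CPM and 18.1, 16.4 and 12.7 CPM (log2 fold change -1.13 ± 0.28, edgeR adjusted p = 0.402). Replicate 1 of the controls was the highest of its group in all 18 genes, and replicates 2 and 3 still lay above every deleted mouse in these 3 genes. Apoe, the lipid carrier that is also made by astrocytes, had 2675, 1486 and 1705 CPM and 1339, 1416 and 1352 CPM, where replicate 2 of the controls came close to the deleted mice. DESeq2 with its prior called 6 of the 18 genes lower, among them Cst7, Cd68 and Trem2. Without replicate 1 of Plekhg5+/+ SOD1-G93A the median was -0.30, with 10 genes lower and 0 higher at an unadjusted p under 0.05.

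Homeostatic markers were lower too. All 12 genes had a negative log2 fold change, 9 were lower at an unadjusted p under 0.05 and 9 did not overlap, with a median of -0.49 (-0.29 and 6 genes without replicate 1 of the controls). Csf1r, the survival receptor of microglia, had 237, 148 and 167 CPM and 136, 134 and 122 CPM (log2 fold change -0.49 ± 0.15). Fcrls had 94.9, 35.2 and 28.9 CPM and 23.3, 20.7 and 17.7 CPM. Fcrls and Olfml3 were called lower by DESeq2 with its prior. The disease-associated mean log2 level in Plekhg5-/- SOD1-G93A mice stayed above the level without the transgene, at 1.00, 1.04 and 0.83, and the homeostatic one was 0.36, 0.33 and 0.34.

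Of the pattern receptors, Tlr2, a Toll-like receptor for bacterial lipids and danger signals (chr3:83836272-83841824), had 21.8, 11.2 and 9.78 CPM and 7.19, 7.01 and 6.78 CPM (log2 fold change -1.03 ± 0.23, edgeR adjusted p = 0.371). Its co-receptor gene Cd14 had 12.5, 6.44 and 7.95 CPM and 5.06, 5.07 and 4.14 CPM, and Fcer1g, the signalling chain of Fc receptors, had 37.6, 16.3 and 19.7 CPM and 14.8, 12.4 and 11.1 CPM. The controls lay above the deleted mice in all 3 genes, and DESeq2 with its prior called all 3 lower. The median over 14 Fc and Toll-like receptor genes was -0.83, with 9 lower at an unadjusted p under 0.05, and -0.32 with 5 lower without replicate 1 of the controls. Among complement genes, C1qa, C1qb and C1qc, the chains of C1q, had log2 fold changes of -0.97 ± 0.29, -0.97 ± 0.27 and -1.01 ± 0.27. C1qa had 283, 121 and 128 CPM and 93.7, 94.2 and 83.6 CPM, with replicate 1 of the controls more than 2 times as high as any other library. The 3 C1q genes lie next to each other 15.2 Mb from Plekhg5. The complement median was -0.97 over 9 genes and -0.46 without replicate 1 of the controls. At an unadjusted p under 0.05, 7 genes were lower and 1 was higher (log2 fold change 0.31), and the same numbers did not overlap. Without replicate 1 of the controls, 6 were lower and 1 was higher at that p.

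Chemokines had the lowest median of all lists, -1.35 over 11 genes, with 8 lower and 0 higher at an unadjusted p under 0.05 and 6 lower without overlap. Ccl4, a chemokine made by activated microglia, had 3.88, 1.55 and 1.56 CPM and 0.648, 0.577 and 0.518 CPM (log2 fold change -2.003 ± 0.359, edgeR adjusted p = 0.22). Ccl3, a closely related chemokine, had 8.23, 3.56 and 2.79 CPM and 1.79, 1.76 and 1.63 CPM, and Ccl6 had 21.3, 9.37 and 8.76 CPM and 5.43, 5.59 and 4.195 CPM. The lowest control had more than the highest deleted mouse in each. Without replicate 1 of the controls the median was -0.69, with 6 genes lower. The neuronal chemokine Cx3cl1 was the only member with a positive value (0.11). DESeq2 with its prior called Ccl2, Ccl3, Ccl4, Ccl5, Ccl6 and Ccl9 lower.

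The interferon list rested on a single library. Its median was -0.80 over 14 genes, all negative, but 3 were lower at an unadjusted p under 0.05 and 0 did not overlap. Ifit1 had 25.9, 8.83 and 7.44 CPM and 7.32, 8.39 and 6.93 CPM, and Mx1, an antiviral GTPase, had 4.92, 1.06 and 0.555 CPM and 1.06, 0.653 and 0.401 CPM, so replicate 1 of Plekhg5+/+ SOD1-G93A alone stood above the other 5 mice. It was the highest control in all 14 genes, and without it the median was -0.05 with 0 genes past an unadjusted p of 0.05. With replicate 2 or 3 of the controls left out instead, 12 and 11 genes were lower. Antigen presentation changed from a median of -0.40 to -0.09 on the same step. Its members include Psmb8, a subunit of the immunoproteasome, at 14.3, 7.43 and 8.46 CPM and 7.26, 6.38 and 6.14 CPM, and B2m, the light chain of class I molecules, at 305, 162 and 156 CPM and 142, 155 and 139 CPM. Bst2, the virus-tethering protein tetherin, had 18.2, 7.095 and 6.03 CPM and 4.63, 6.95 and 4.87 CPM. Of the genes with the smallest p outside the lists, Siglecf, a sialic acid receptor of myeloid cells (7.67, 2.51 and 2.25 CPM and 1.17, 0.880 and 1.27 CPM), Pdcd1, the checkpoint receptor PD-1 (6.31, 1.72 and 1.62 CPM and 0.463, 0.516 and 0.466 CPM), and Cyba, a subunit of the phagocyte oxidase (18.9, 10.3 and 12.7 CPM and 8.57, 7.71 and 6.86 CPM), were lower in all deleted mice. Of 10 lymphocyte markers 5 passed the filter on low counts. The summed level of all 10 was 6.81, 4.75 and 5.16 CPM and 7.25, 7.39 and 4.901 CPM. Over the 5 that passed, the median log2 fold change was 0.07, and 0.39 without replicate 1 of the controls. Border macrophage markers summed to 16.5, 10.6 and 21.2 CPM and 16.9, 20.98 and 15.8 CPM (median 0.09). The sign and size of that median depended on single libraries, at -0.10 and 0.49 without replicates 2 and 3 of the controls and 0.25 and -0.11 without replicates 1 and 2 of Plekhg5-/- SOD1-G93A. The 8 markers of ependymal cells, which line the central canal, summed to 56.8, 57.1 and 47.9 CPM and 53.01, 42.5 and 55.1 CPM (median -0.21, and -0.12 without replicate 2 of Plekhg5-/- SOD1-G93A).

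**Figure D5:**
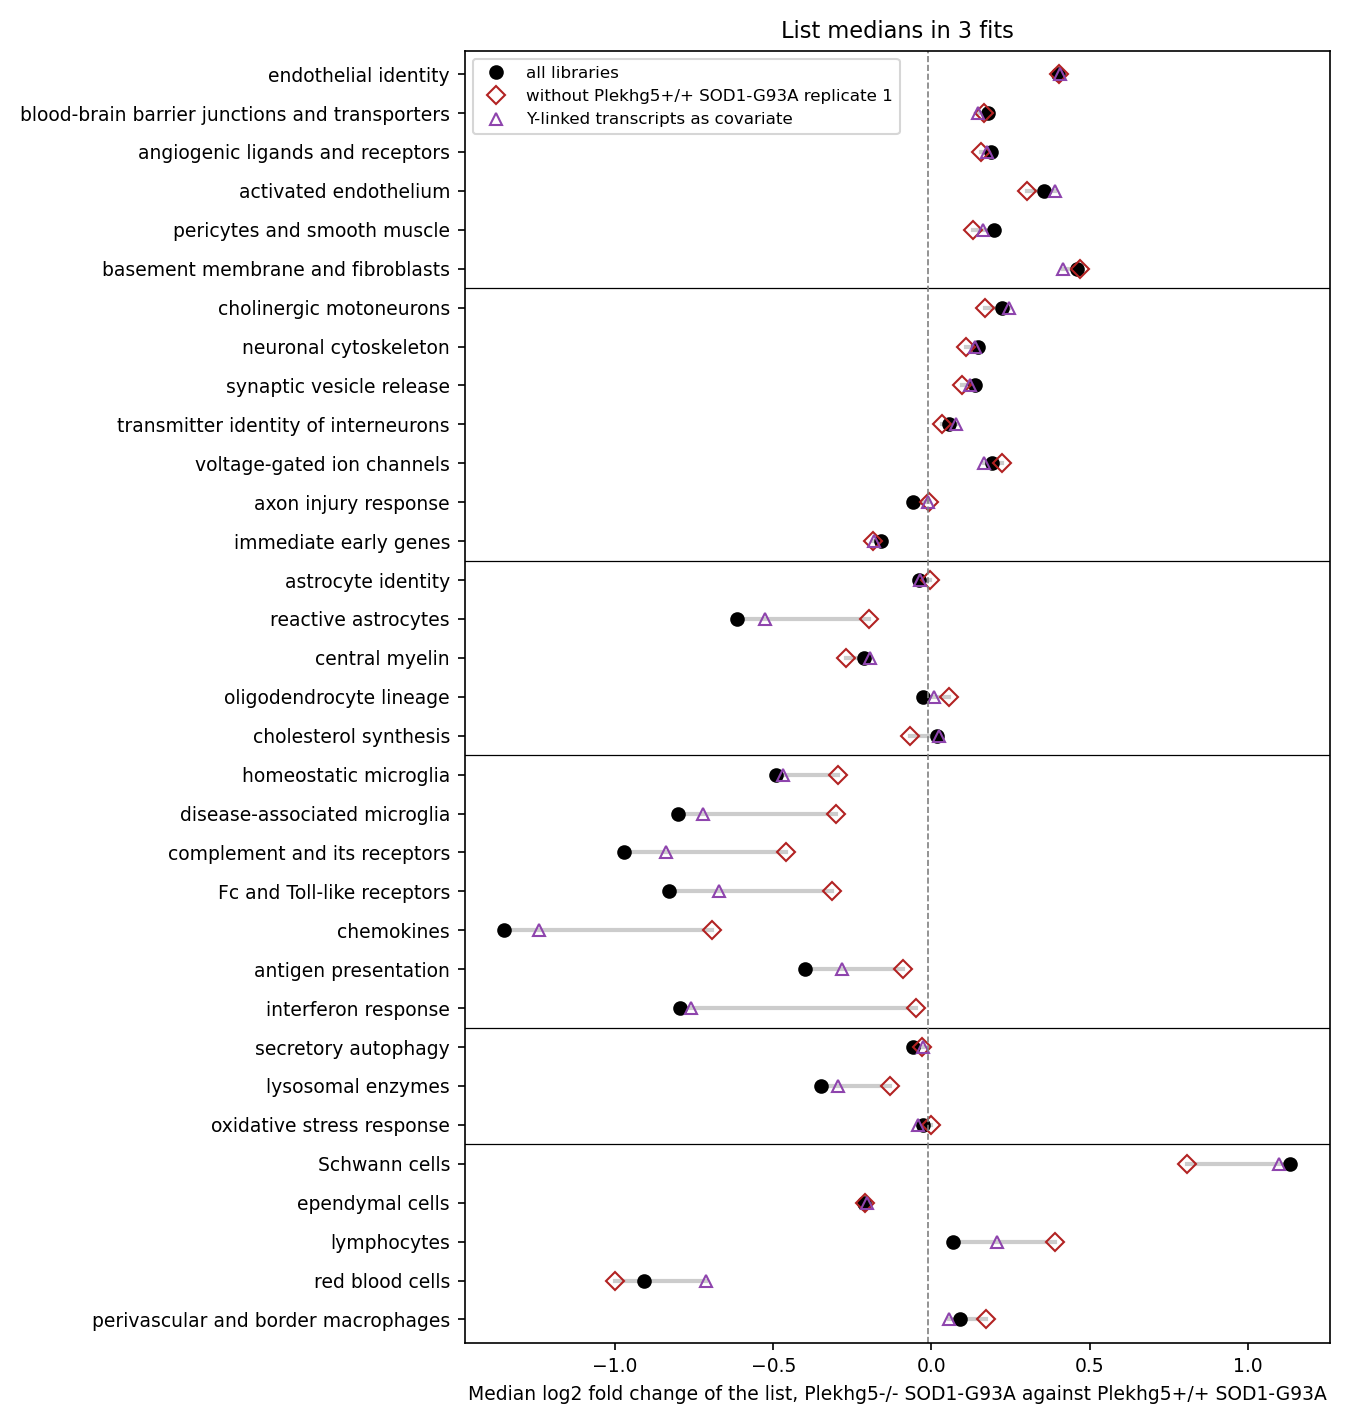
Median log2 fold change of each list (x axis, Plekhg5-/- SOD1-G93A against Plekhg5+/+ SOD1-G93A) with all libraries (black circles), without replicate 1 of Plekhg5+/+ SOD1-G93A (red diamonds) and with Y-linked transcripts as a covariate (purple triangles), beside the median of all genes (dashed line). Without that library the endothelial identity median stays at 0.40 and that of basement membrane and fibroblasts goes from 0.46 to 0.47. The synaptic vesicle median moves from 0.14 to 0.10, the central myelin median from -0.21 to -0.27 and the interferon median from -0.80 to -0.05.

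Organelle genes were compared because Plekhg5 acts in autophagy and secretion. Of 16 genes of secretory autophagy, 1 was higher and 0 lower at an unadjusted p under 0.05, with a median of -0.06 and mean log2 levels within 0.04 of the non-transgenic level in all 6 libraries. Ulk1, the kinase that starts autophagy, was the one above, at 74.7, 89.5 and 79.1 CPM and 97.6, 91.1 and 94.7 CPM (log2 fold change 0.22 ± 0.09). Tfeb, the master regulator of lysosomal genes, had 20.8, 21.4 and 21.1 CPM and 19.2, 18.5 and 19.1 CPM, and Lamp1, a lysosomal membrane protein, had 808, 732 and 777 CPM and 714, 697 and 702 CPM. Both lay slightly lower in every deleted mouse. Lysosomal enzymes had a median of -0.35 over 15 genes, with 10 lower and 0 higher at an unadjusted p under 0.05, and -0.13 with 4 lower without replicate 1 of the controls. Ctss, a cathepsin of microglia, had 460.3, 227 and 232 CPM and 176, 171 and 165 CPM, and Ctsd, an aspartic protease of lysosomes, had 1845, 914 and 841 CPM and 779, 717 and 639 CPM. Replicate 1 of the controls was the highest of its group in all 15 enzymes, as in the disease-associated list. The part of microglial numbers in the lysosomal values was not tested. Among 15 oxidative stress genes, Hmox1, the haem-degrading enzyme, had 23.7, 10.3 and 10.4 CPM and 8.295, 7.62 and 6.58 CPM, and Mt3, the neural metallothionein, had 174, 158 and 177 CPM and 129.6, 127 and 135 CPM. The oxidative stress list had a median of -0.03, with 3 genes lower and 0 higher at an unadjusted p under 0.05. Without overlap, 5 of its genes were lower and 1 was higher. Its median was -3.2e-05 without replicate 1 of the controls and -0.08 without replicate 2. Mouse Sod1 overlapped between the genotypes, at 148, 154 and 174 CPM and 156, 155 and 155 CPM.

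Of the genes named for the smallest p, a few belong to none of the lists. Filip1, a regulator of filamin, had 3.696, 4.72 and 4.59 CPM and 8.05, 5.98 and 8.16 CPM (log2 fold change 0.77 ± 0.17, edgeR adjusted p = 0.343), and Sgcd, the sarcoglycan of muscle and smooth muscle membranes, had 9.81, 10.6 and 10.1 CPM and 14.7, 15.4 and 17.3 CPM (log2 fold change 0.64 ± 0.14). Fam205a2, Fam205a3 and Fam205a4, near-identical copies on chromosome 4 that share reads and are uncertain singly, had log2 fold changes of 0.75, 0.75 and 0.74. On the lower side Cela1, an elastase, had 15.4, 10.3 and 10.9 CPM and 6.75, 6.497 and 7.303 CPM (log2 fold change -0.83 ± 0.16, edgeR adjusted p = 0.262). Gnb4, a G-protein beta subunit, had 36.98, 35.3 and 32.5 CPM and 27.4, 27.6 and 27.6 CPM, and Dnaic2, a dynein chain of motile cilia, had 7.24, 6.85 and 7.08 CPM and 4.96, 5.601 and 4.82 CPM. Phf11a was scarce, at 0.958, 0.396 and 0.405 CPM and 0.167, 0.202 and 0.123 CPM. The groups did not overlap for any of these genes, and none passed the adjusted threshold.

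The same lists were read in the mice without the transgene, which share no library with this comparison. Sex was not balanced there either. Y-linked transcripts were present in all Plekhg5+/+ mice, which also set the reference level of the lists, while Xist was high (788 CPM) in replicate 2 of Plekhg5-/-. Between Plekhg5-/- and Plekhg5+/+ mice the median was -0.06 for endothelial identity, -0.09 for basement membrane and fibroblasts, -0.54 for Schwann cells, 0.26 for disease-associated microglia and 0.08 for central myelin. Each sign was opposite to that in the SOD1-G93A mice, but the mean log2 levels of each of these lists overlapped between the 2 genotypes. For endothelial identity they were -0.38, 0.06 and 0.05 in Plekhg5-/- and -0.02, 0.02 and 0.002 in Plekhg5+/+ mice. Those of central myelin were 0.33, 0.03 and 0.03 against 0.11, -0.09 and -0.01, so replicate 1 of Plekhg5-/- stood apart in both. Of all 33 lists 26 had opposite signs and 7 the same sign, among them red blood cells (-0.62 without the transgene), immediate early genes (-0.26) and pericytes and smooth muscle (0.09). Activated endothelium had the largest value of any list there, -1.44, with 7 of 11 genes lower and 0 higher at an unadjusted p under 0.05, against 2.79% and 2.53% of all genes. There Angpt2 had 2.26, 2.27 and 1.75 CPM in Plekhg5+/+ and 1.08, 1.33 and 1.29 CPM in Plekhg5-/- mice, and Cdh5 had 14.9, 18.7 and 15.7 CPM and 10.8, 14.8 and 18.5 CPM. Angpt2 had a log2 fold change of -0.76 ± 0.18 there against 0.99 ± 0.18 with the transgene, and its groups lay apart in both. The interaction test called 0 of 20155 genes with edgeR, with 1824 at an unadjusted p under 0.05 and a smallest adjusted p of 0.235, so no gene was shown to respond differently with and without the transgene. With Y-linked transcripts as a covariate the medians kept their sign in each of the lists of endothelium, basement membrane, Schwann cells, myelin and microglia, at 0.41 for endothelial identity and -0.72 for disease-associated microglia. Fewer genes had an unadjusted p under 0.05 in that fit, 452 higher and 693 lower. Endothelial identity kept 12 higher, but antigen presentation went from 7 to 2 lower, reactive astrocytes from 9 to 6 lower and synaptic vesicle release from 6 to 3 higher. The oligodendrocyte lineage median turned from -0.027 to 0.0075.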

How the data were processed

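RNA of spinal cord from 12 mice (4 genotypes, 3 libraries each) was read as stranded poly-A libraries of 75 nt single-end reads. Per the labels and the methods of the study, the authors trimmed reads with cutadapt 2.4, aligned them with STAR 2.7.2b to GRCm38.p6 and deposited estimated counts per gene from featureCounts 1.6.4 (RefSeq annotation 108), where reads with several matches count as fractions. Here counts were rounded, scaled by TMM, filtered (filterByExpr) and tested with edgeR 4.0.16 quasi-likelihood over all 12 libraries, with Benjamini-Hochberg adjustment. CPM use TMM library sizes, and log2 levels a prior count of 2. P-values measure the spread between these libraries, which may in part be technical. Alternatives used DESeq2 1.42.0 and limma 3.58.1 (R 4.3.3), a Y-linked covariate (Y-linked counts above 1000), a replicate block and left-out libraries. Text genes are the targeted genes, all called genes, the 12 higher and 12 lower with the smallest p (predicted genes left out unless called), and from each list up to 4 with the smallest p and 2 with the highest CPM. Some genes that this rule names are not reported here. A few chemokines called by DESeq2 were named after their values were seen. The comparison, members and lists were chosen with earlier results of these data known. Promoter windows came from RefSeq for 312 of 441 list genes. The scripts were tested on simulated data.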

Additional observations from a re-analysis of the deposited data

Results flagged for a closer look

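For 14 of the genes named, all 3 Plekhg5-/- mice lay on one side of the Plekhg5+/+ mice with SOD1-G93A and on the opposite side without it. The difference between both log2 fold changes did not pass the adjusted threshold for any of them in the edgeR interaction test. In the higher direction with the transgene it was 1.75 for Angpt2, 1.15 for Sox18, 0.64 for Ackr1 and 0.23 for Cx3cl1. In the lower direction it was -2.98 for Phf11a, -2.68 for Siglecf, -1.62 for Cd68, -1.32 for Tlr2, -1.18 for Cela1, -1.17 for Itgb2, -1.10 for Opalin, -0.66 for B2m, -0.51 for Csf1 and -0.50 for Gnb4. Over all genes tested, 248 had groups apart in opposite directions in both comparisons and 77 in the same direction. No formal test for a single distant library was applied to groups of 3.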

How the results depend on the processing

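Against 7 calls with edgeR, DESeq2 gave 75 without and 115 with its prior on fold changes, and edgeR gave 11 on the 6 libraries alone, 7 with DESeq2 size factors, 8 without a filter and 5 with the Y-linked covariate, where Eno1 and Faap20 missed the threshold. The limma voom fit gave 7. With the prior and the 6 libraries alone, chosen after seeing the data, DESeq2 gave 180 calls, and 138 without replicate 1 of Plekhg5+/+ SOD1-G93A, of which 3 were among the 7 and the other 4 of the 7 had no adjusted p. Leaving out each library in turn gave 4 to 8 calls, with the lowest number without replicate 2 of Plekhg5+/+ SOD1-G93A or of Plekhg5-/- SOD1-G93A. The replicate numbers did not pair the mice (correlations of deviations 0.298, -0.0745 and -0.0463, with replicates 2 and 3 of Plekhg5+/+ SOD1-G93A nearest to replicates 3 and 2 of Plekhg5-/- SOD1-G93A). The replicate block gave 8 calls.

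The DESeq2 prior shrank the medians of the angiogenic (0.070), basement membrane (0.27) and Schwann cell (0.28) lists. It also shrank the log2 fold changes of the called genes Gm30120, Gm8483 and LOC115489042, to 1.2, 0.97 and 0.99. With libraries left out, the median ran from 0.097 to 0.22 for synaptic vesicle release, from -1.04 to -0.30 for disease-associated microglia and from -0.064 to -0.020 for secretory autophagy, which was -0.027 with the Y-linked covariate. Of 660 list medians under the alternatives, 639 moved by less than the spread between replicates and 652 kept their sign. These counts do not measure how firm a list is. Some alternatives left out only a library without the transgene, which hardly moves a median. The spread also includes the distance of replicate 1 of Plekhg5+/+ SOD1-G93A. The fall of the homeostatic microglia median from -0.49 to -0.29 without that library stayed within it. Among genes, human SOD1, at 0.0024 on the log2 scale, was -0.0024 without a filter, -0.00048 on the 6 libraries, -0.0088 with the replicate block and -0.078 to 0.099 with libraries left out. Mouse Sod1 ran from -0.077 to 0.042 and Atf3 from -0.86 to 0.034 with libraries left out. The causes of these shifts were not tested. Intervals for genes under 1 CPM rest on few counts.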
